A study of Mus musculus with 6 samples.

Results

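The mitochondrial carriers are small proteins of the Slc25 family that move metabolites across the inner mitochondrial membrane. Their genes were read in macrophages from 2 mouse tissues, taken as every gene of the deposited count table whose symbol is Slc25a followed by a number, or is Ucp1, Ucp2 or Ucp3. There were 50 such genes among 50600 in the table. Of these, 37 had enough counts to be tested, 10 more had at least 1 count, and 3 (Slc25a21, Slc25a41 and Slc25a54) had no count in any library. RNA came from 3 libraries of pancreatic islet macrophages and 3 of macrophages from epididymal white adipose tissue, numbered 2, 4 and 6 in each tissue, all from untreated 12-week-old male C57BL/6J mice on a chow diet. Cells had been sorted as live and positive for the pan-leukocyte protein CD45 and the macrophage proteins F4/80 and CD64. The sources used here do not say whether a library comes from 1 mouse or several, and p-values measure the spread between these libraries. Values per library are listed in the order 2, 4, 6 for each tissue.

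As background, each carrier has a substrate or a narrow group of substrates. Some exchange ATP for ADP or bring in phosphate for ATP synthesis, others move citrate, malate, amino acids, acylcarnitines, nucleotides, cofactors or iron. The uncoupling proteins belong to the same family, and Ucp1 lets protons back into the matrix to make heat in brown fat. Macrophages rely on several carriers when they change their metabolism, because citrate, succinate and aspartate made in mitochondria act outside them.

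Library totals ran from 4089980 to 9235591 counts. The 10 macrophage markers checked, Ptprc, Adgre1, Fcgr1, Csf1r, Cd68, Lyz2, Mertk, C1qa, C1qb and C1qc, had counts in both tissues and together took 0.798% to 1.03% of counts in islet and 1.07% to 1.36% in fat libraries. Lyz2 alone gave 8017 of 48585, 6114 of 42057 and 7810 of 55242 of these counts in islet. In fat libraries it gave 32615 of 99019, 32436 of 86669 and 31363 of 104083. Lyz2 and Mertk were called lower in islet (log2 -1.33 and -3.05), and the other 8 did not pass. Among those 8, Ptprc and Fcgr1 lay above fat in every islet library. The median log2 difference of the 10 was 0.24. RNA of other cells and of stress also differed between the tissues. The 8 heat shock genes of the stress list took 9.55%, 10.4% and 0.812% of counts in the islet libraries and 0.260% to 0.292% in the fat libraries, and all 8 were called higher in islet. The 7 immediate early genes of that list took 0.118% to 0.721% in islet and 1.43% to 1.74% in fat libraries, and 4 of them (Fos, Fosb, Junb and Ier2) were called lower in islet. The 12 islet hormone and granule markers took 0.377% to 0.793% of counts in islet libraries and at most 0.000604% in fat libraries, where 8 of the 12 had no count. The 10 adipocyte markers had no count in any islet library and took 0.00535% to 0.0173% in fat libraries. Fibroblast and mesothelial markers took 0.000151% to 0.000766% against 0.00999% to 0.0464%, and endothelial markers 0.00120% to 0.00287% against 0.00388% to 0.0223%. Markers of dendritic cells took 0.00130% to 0.00169% in islet and 0.00511% to 0.00695% in fat, and those of T and NK cells 0.000562% to 0.00132% and 0.00142% to 0.00205%. In the dendritic list Kmo and Zbtb46 were called lower in islet. Flt3, Clec9a and Ccr7 leaned the other way (log2 0.78, 1.48 and 2.32) and did not pass. Cd4 gave 79 of 79, 23 of 23 and 86 of 87 T and NK counts in islet, and 111 of 131, 135 of 153 and 92 of 155 in fat libraries. Summed granulocyte markers (0.00460% to 0.00742% against 0.00266% to 0.00435%) and acinar markers (0.000486% to 0.00800% against 0.000206% to 0.000314%) were higher in islet, and B cell markers overlapped. The granulocyte sum was mostly Csf3r, with 428 of 443, 172 of 188 and 399 of 401 counts in islet libraries. S100a8 and S100a9 went the other way, with 0 counts in islet and 1, 5, 1 and 14, 12, 7 counts in fat libraries. The part of these cells and of stress in the results was not tested. In bulk RNA, fewer cells of a type and less RNA per cell cannot be told apart.

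Most of the carrier family was not distinguishable between the tissues. In the edgeR quasi-likelihood fit over 12152 genes, 2 of 37 tested carriers were higher in islet macrophages, 2 were lower and 33 did not pass a Benjamini-Hochberg adjusted p of 0.05. That is 10.8% of the tested carriers, where 19.4% of all genes tested passed (8.97% higher and 10.5% lower). The carriers that rose were Slc25a25, a calcium-regulated carrier of ATP-Mg and phosphate, and Slc25a44, which carries branched-chain amino acids. Those that fell were Slc25a37 (mitoferrin 1), which brings iron into mitochondria, and Slc25a24, a second ATP-Mg and phosphate carrier. The median log2 difference, islet minus fat, was 0.06 over the 37 carriers and 0.01 over all genes tested. A log2 difference of less than 1 in either direction was found for 24 of the 37 carriers (64.9%) and for 66.0% of all genes tested.

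**Figure D1:**
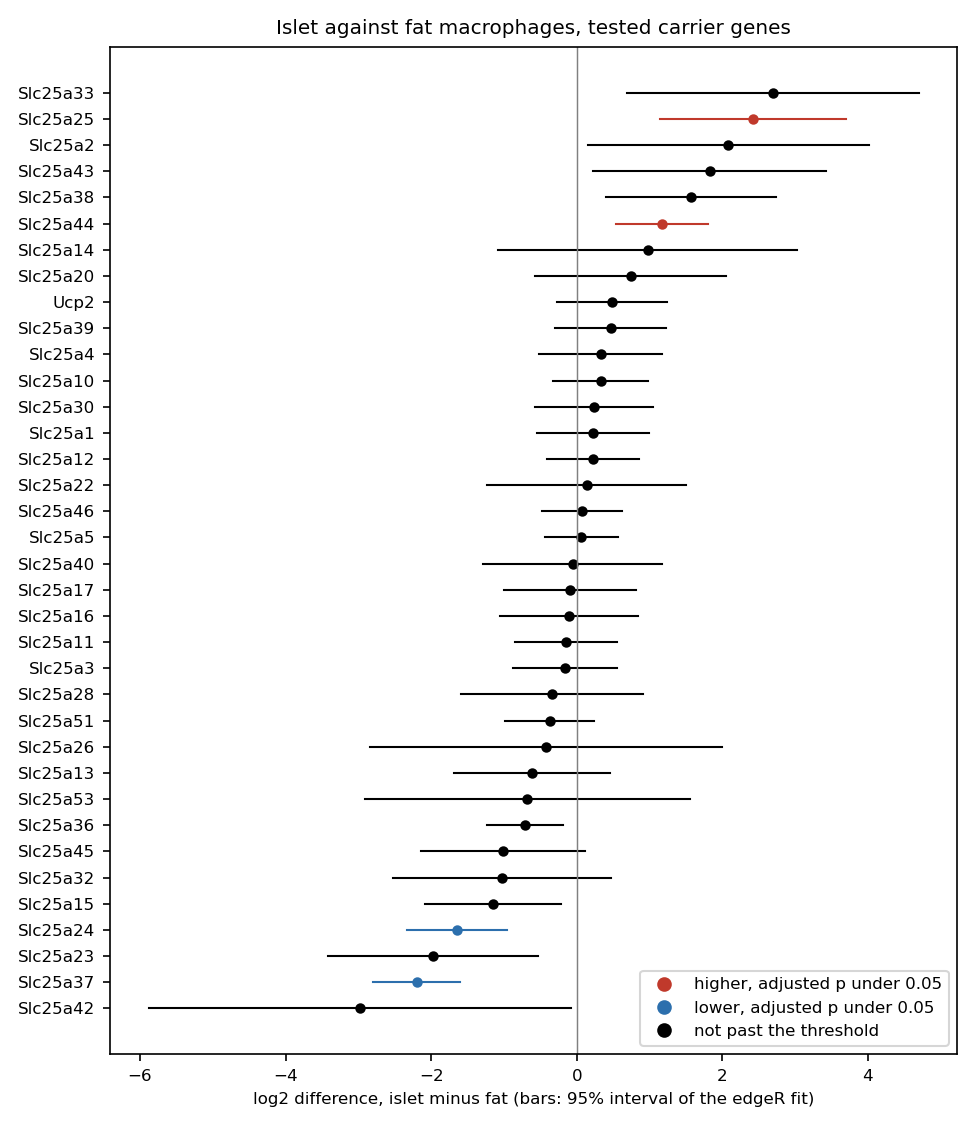
Log2 difference between islet and fat macrophages (x axis, islet minus fat) for 36 of the 37 tested carrier genes, with 95% intervals of the edgeR fit as bars and the genes past an adjusted p of 0.05 in colour. Only Slc25a25, Slc25a44, Slc25a24 and Slc25a37 are coloured, and most of the other intervals cross 0.

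The count of calls moved with the tool and the libraries, for the carriers as for all genes. DESeq2 called 5 carriers higher and 5 lower, 27.0% of those tested against 26.1% of all genes, and limma voom 2 higher and 5 lower, 18.9% against 21.6%. Without islet library 6, edgeR called 9 of 39 carriers (23.1% against 28.3% of all genes). With islet library 6 as the sole islet sample, a fit added because libraries 2 and 4 were rich in heat shock RNA, it called 2 higher and 12 lower of 39 (35.9% against 34.8%). The 12 were Slc25a3, Slc25a11, Slc25a15, Slc25a17, Slc25a20, Slc25a23, Slc25a24, Slc25a32, Slc25a36, Slc25a37, Slc25a42 and Slc25a45. The lone islet library is then taken to vary as the fat libraries do, and the median of all genes stood at -0.20 and that of the carriers at -0.35 on the log2 scale. Without any 1 fat library or without islet library 2, the edgeR calls of Slc25a25 and Slc25a44 were lost, and 2 or 3 carriers were called lower. With all libraries, 13 of the 37 had an unadjusted edgeR p under 0.05, where 32.5% of all genes did. In CPM (counts scaled to library size), 6 carriers lay above fat in every islet library and 6 lay below, with no overlap, where 18.2% and 22.3% of all genes tested did so.

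Ucp2, an uncoupling protein that macrophages are known to express, was by far the most abundant carrier transcript. Per length, its level was 276 RPKM (reads per kilobase of exon, scaled to library size) in islet and 197 RPKM in fat macrophages (means of 3 libraries). By the mean over all 6 libraries the next were Slc25a5, the widespread ADP/ATP carrier, at 74.4 RPKM in islet and 71.3 RPKM in fat, Slc25a3, the phosphate carrier, at 30.9 and 34.4, Slc25a4, the ADP/ATP carrier of heart and muscle, at 31.1 and 24.6, Slc25a33 at 31.5 and 4.87, and Slc25a11, the oxoglutarate and malate carrier, at 13.0 and 14.3. In fat alone Slc25a24 (18.9 RPKM) came before Slc25a11, and Slc25a33 stood far lower. Ucp2 led in every library and Slc25a5 came next, except in islet library 2, where Slc25a33 reached 75.7 RPKM and Slc25a5 74.9 RPKM. Slc25a3, Slc25a4 and Slc25a33 had nearly the same islet mean and differed there by less than their spread, while in fat Slc25a3 came ahead of Slc25a4 in every library. Ucp2 alone took 63.9%, 69.2% and 61.9% of the family's counts in islet and 55.5%, 59.6% and 59.0% in fat libraries. The islet shares were all above the fat shares, and the difference of the means was 6.94 percentage points.

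**Figure D2:**
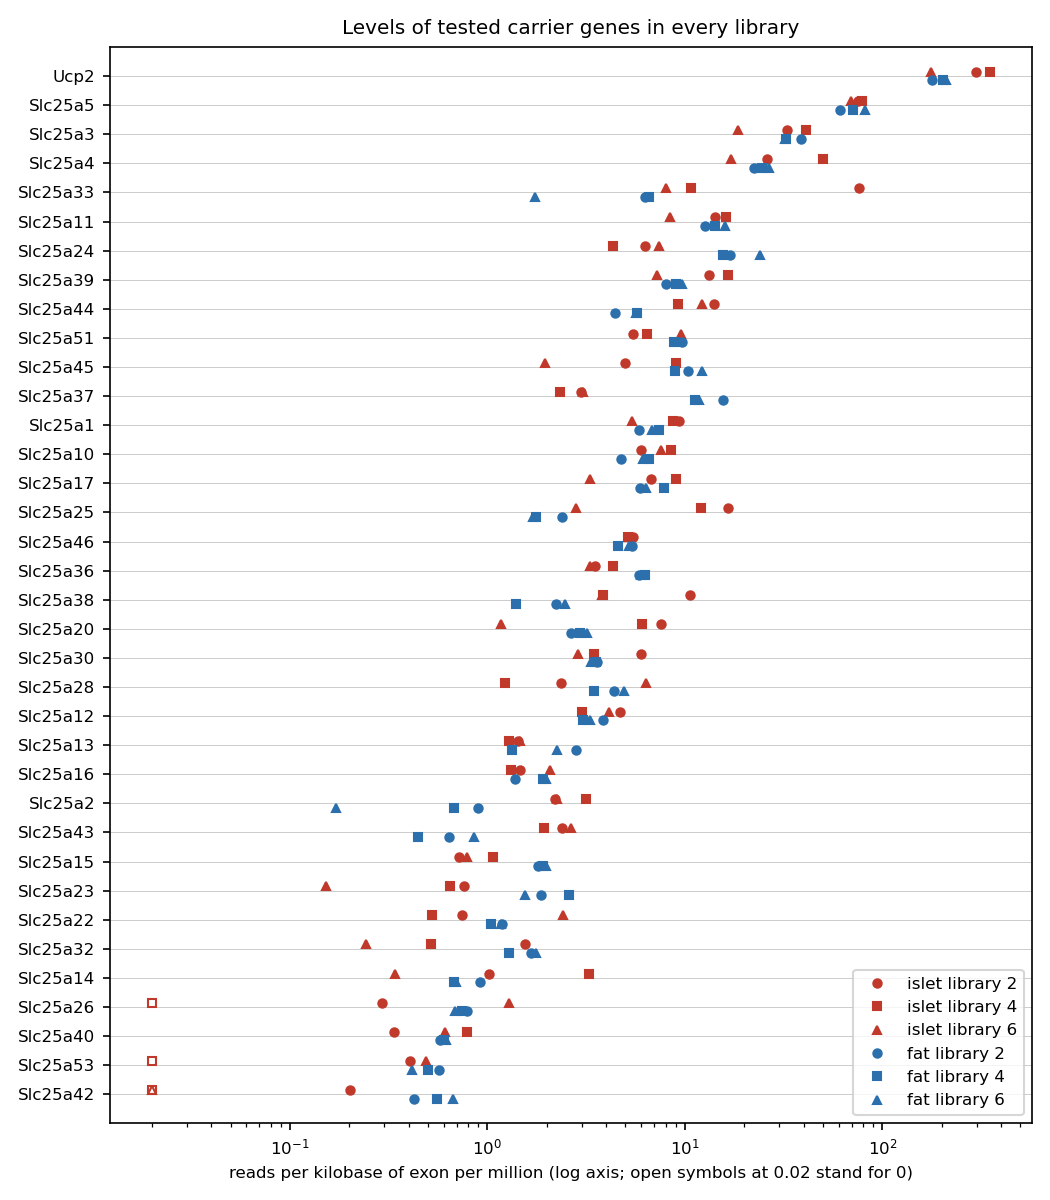
Level of 36 of the 37 tested carrier genes in every library, in RPKM on a log axis (open symbols stand for 0), with islet libraries in red and fat libraries in blue and a symbol for each library number. Ucp2 lies far to the right of all others in every library, and for most genes the red symbols spread around the blue ones.

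The whole family took 0.271%, 0.303% and 0.215% of counts in islet, and 0.258%, 0.240% and 0.277% in fat libraries. The widest exact binomial 95% interval, of islet library 4, was 0.297% to 0.308%, which covers counting error only. The tissues overlapped, at 0.263 ± 0.0446% in islet and 0.258 ± 0.0181% in fat (mean ± SD, n = 3 each). Without Ucp2 the shares were 0.0911 ± 0.00835% and 0.108 ± 0.00978%, and these overlapped too.

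Ucp2 (ENSMUSG00000033685.13, GRCm38 chromosome 7, 100493337 to 100502020) had 2086, 2455 and 1240 CPM in islet and 1247, 1417 and 1469 CPM in fat libraries. Islet libraries 2 and 4 lay above every fat library and islet library 6 just below, so the tissues overlapped. The log2 difference was 0.48 ± 0.33 (SE), with a 95% interval of -0.27 to 1.24 and an edgeR adjusted p = 0.361. Without islet library 6 it was 0.71 and passed (edgeR adjusted p = 0.0330). The heat shock share was lowest in the same islet library, and its part in the result was not tested. Dnajb13, on the opposite strand, covers 4.36% of the exonic length of Ucp2.

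Ucp1 and Ucp3 were near the limit of detection and were not tested. Ucp1, the heat-producing protein of brown fat, had 0 counts in the islet libraries and 3, 2 and 0 in fat libraries 2, 4 and 6. The brown adipocyte markers, among them Cidea and Elovl3, took at most 0.000303% of counts in any library. Ucp3, the uncoupling protein best known from muscle, had 5, 20 and 0 counts in islet and 3, 0 and 0 in fat libraries. Its 25 islet counts came mostly from library 4. The near relatives Slc25a14 and Slc25a30 had log2 differences of 0.97 ± 0.91 and 0.23 ± 0.36 (SE), with edgeR adjusted p = 0.511 and 0.699. Slc25a27, found mainly in brain, had 6 islet and 65 fat counts in all, with 40, 21 and 4 in fat libraries 2, 4 and 6.

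Carriers of adenine nucleotides and phosphate supply ATP synthesis and set the adenine nucleotide pool of mitochondria. Of 12 genes in this group 9 were tested, and 1 rose, 1 fell and 7 did not pass. The 3 most abundant did not pass with all libraries. Slc25a5 (chromosome X, 36795651 to 36798807) stood at 123, 130 and 115 CPM in islet and 101, 117 and 134 CPM in fat libraries, a log2 difference of 0.06 with a 95% interval of -0.44 to 0.56. Slc25a3 stood at 183, 228 and 103 CPM in islet and 215, 180 and 178 CPM in fat libraries, with an interval of -0.87 to 0.55. Slc25a4 stood at 61.1, 118 and 40.4 CPM in islet and 52.9, 58.0 and 62.7 CPM in fat libraries, with an interval of -0.51 to 1.18. For Slc25a3 and Slc25a4 the islet libraries spread over both sides of the fat values, and the intervals do not exclude moderate differences either way. With library 6 as the sole islet sample, Slc25a3 passed as lower (log2 -0.98, edgeR adjusted p = 0.00629) and Slc25a4 did not pass (log2 -0.60, adjusted p = 0.0718). Slc25a5 has processed copies in the genome, of which Slc25a5-ps had 0 counts in all 6 libraries.

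The calcium-regulated ATP-Mg and phosphate carriers, which bind calcium through a domain outside the carrier and shift the adenine nucleotide content of the matrix, went opposite ways. Slc25a24 (ENSMUSG00000040322.10, chromosome 3, 109123149 to 109168457) stood at 21.6, 14.9 and 25.5 CPM in islet and 57.9, 53.5 and 82.8 CPM in fat libraries. Every islet library lay below every fat library. The gene was 3.12-fold lower in islet macrophages (log2 -1.64 ± 0.30, SE, edgeR adjusted p = 0.00638), and it passed without each of the 6 libraries in turn (adjusted p up to 0.0384). Slc25a25 (ENSMUSG00000026819.15, chromosome 2, 32414487 to 32451445) stood at 130, 95.2 and 22.1 CPM in islet and at 18.7, 13.9 and 13.4 CPM in fat libraries. All islet libraries were above all fat libraries, islet library 6 only narrowly. On the opposite strand, the protein-coding gene Naif1 covers 4.82% of the exonic length of Slc25a25. Slc25a25 was higher in islet macrophages by 5.35-fold (log2 2.42 ± 0.56, SE, edgeR adjusted p = 0.0178).

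The call for Slc25a25 rested on several libraries. It missed the threshold without fat library 2, 4 or 6 or without islet library 2 (edgeR adjusted p = 0.0670, 0.0893, 0.0823 and 0.0646), while its log2 difference stayed between 1.91 and 2.87 with any 1 library left out. In the fit with islet library 6 alone for islet, its log2 difference was 0.44 (adjusted p = 0.322). Islet libraries 2 and 4 were those with 9.55% and 10.4% of counts from heat shock genes, against 0.812% in library 6, and the part of that stress RNA in the result was not tested. For Slc25a24 the left-out range was -1.83 to -1.43.

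Sequences before the RefSeq starts of both genes are shown because they are close relatives that moved apart. Each line is the 250 bases upstream of a start in build GRCm38.p6, 5′ to 3′ on the strand of the gene, with matches to the searched motifs in capitals. The table of starts lists 3 for Slc25a25, and of these the first and the last along the gene are printed. The count table is per gene, so it does not tell which start was used.
Slc25a24, chr3:109122899-109123148, plus strand: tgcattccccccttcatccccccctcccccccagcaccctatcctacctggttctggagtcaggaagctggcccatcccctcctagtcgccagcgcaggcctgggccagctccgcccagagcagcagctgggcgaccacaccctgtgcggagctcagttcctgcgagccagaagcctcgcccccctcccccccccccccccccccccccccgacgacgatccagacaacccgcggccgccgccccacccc
Slc25a25 first start, chr2:32451471-32451720, minus strand: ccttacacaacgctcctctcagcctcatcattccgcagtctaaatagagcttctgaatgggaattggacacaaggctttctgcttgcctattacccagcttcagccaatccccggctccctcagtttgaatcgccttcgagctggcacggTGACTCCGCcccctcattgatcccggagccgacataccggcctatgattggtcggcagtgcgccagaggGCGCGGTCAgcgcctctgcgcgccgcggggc
Slc25a25 last start, chr2:32424067-32424316, minus strand: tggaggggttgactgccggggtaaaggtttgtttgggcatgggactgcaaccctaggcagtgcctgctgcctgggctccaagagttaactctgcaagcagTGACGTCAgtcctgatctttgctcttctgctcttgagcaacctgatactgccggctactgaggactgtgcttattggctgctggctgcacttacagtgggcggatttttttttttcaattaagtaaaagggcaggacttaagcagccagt
The motifs reported here, searched on both strands, were the cAMP response element TGACGTCA, an antioxidant response element TGACNNNGC, the E-box CACGTG, an oestrogen-related receptor element TCAAGGTCA and a GATA site AGATAA. In the first Slc25a25 window the capitals are 2 antioxidant response element matches, and in the last they are a cAMP response element beginning 150 bases before the start. None of the printed matches overlaps another. The Slc25a24 window and the middle Slc25a25 window, which is not printed, have no match to any of these 5 motifs. Among 32851 windows of this length the cAMP response element was found in 1.55%, the antioxidant response element in 10.2%, the E-box in 6.02%, the GATA site in 9.99% and the oestrogen-related receptor element in 0.387%. In the 49 windows of the 39 carriers with an entry, the motifs were found in 2, 10, 8, 0 and 2 windows. That order is cAMP response element, antioxidant response element, E-box, oestrogen-related receptor element and GATA site. The carrier windows were richer in G and C than all windows (median 57.6% against 52.4%). They also held more CG steps (median 12 against 6). The part of this base content in the match counts was not tested. The other carrier with a cAMP response element was Slc25a36. A match is a description of letters and not a site shown to be bound.

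Slc25a23, also of this calcium-regulated kind, lay at 4.03, 3.44 and 0.808 CPM in islet and 9.93, 13.7 and 8.23 CPM in fat libraries, without overlap, and did not pass in edgeR (log2 -1.97 ± 0.64, adjusted p = 0.0613). DESeq2 and limma voom called it lower (adjusted p = 0.0120 and 0.0395). Slc25a42, the mitochondrial carrier of coenzyme A, had 6, 0 and 0 counts in islet and 27, 25 and 34 in fat libraries, with an edgeR adjusted p = 0.143. Slc25a16 and Slc25a17, linked to coenzyme A in mitochondria and peroxisomes, had log2 differences of -0.11 and -0.09. Slc25a31, an ADP/ATP carrier of the germ line, had 0 islet counts and 7, 6 and 4 counts in fat libraries 2, 4 and 6. That is at least 3.38-fold lower in islet, taking a floor of 3 counts over the 3 islet libraries together, and it was not tested. Slc25a41 and Slc25a54 had no counts, which allows up to 0.0706 CPM over the 6 libraries.

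Iron enters mitochondria through mitoferrin 1 (Slc25a37) and mitoferrin 2 (Slc25a28), for haem and iron-sulphur clusters. Slc25a37 (ENSMUSG00000034248.7, chromosome 14, 69241848 to 69285112) stood at 17.9, 14.0 and 18.5 CPM in islet and 93.7, 67.9 and 71.1 CPM in fat libraries. The tissues were far apart and the islet values were close together. On the opposite strand, Gm31748 and Gm27223 cover 6.33% and 1.53% of its exonic length. The gene was 4.59-fold lower in islet macrophages (log2 -2.20 ± 0.26, SE, edgeR adjusted p = 7.95e-04), the smallest adjusted p of the 37 carriers. It passed in every fit run, with log2 differences between -2.36 and -2.06 when 1 library was left out. Slc25a28 stood at 8.87, 4.59 and 23.7 CPM in islet and at 16.5, 13.0 and 18.5 CPM in fat libraries, with islet library 6 above and the others below all fat values (log2 -0.34 ± 0.55, edgeR adjusted p = 0.714). The erythroid list, whose cells use much mitoferrin 1, took 0.000122% to 0.00189% of counts in islet and 0.000170% to 0.00146% in fat libraries, so it overlapped between tissues, and Slc4a1 and Epb42 had no count in islet. In the fat libraries, adipocyte markers took 0.0140%, 0.0173% and 0.00535% of counts, fibroblast and mesothelial markers 0.0464%, 0.0318% and 0.00999%, and endothelial markers 0.0223%, 0.00848% and 0.00388%. Their part in the result for Slc25a37 was not tested.

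Among the other carriers of cofactors and nucleotides, none of the remaining 8 passed. Slc25a33, a pyrimidine nucleotide carrier (chromosome 4, 149744036 to 149774277), stood at 143, 20.4 and 15.2 CPM in islet and 11.8, 12.5 and 3.29 CPM in fat libraries. The islet libraries were all above the fat libraries, but the high mean was made by islet library 2. Its log2 difference of 2.69 ± 0.88 had an edgeR adjusted p = 0.0650, while a fit blocked on library number gave 2.20 and passed (adjusted p = 0.0313). Slc25a33 passed in 3 of the 10 other settings, the blocked fit among them, and in 2 of the 6 fits with 1 library left out. Without islet library 2 its log2 difference was 0.94. An antisense gene, Gm13068, covers 14.9% of its exonic length. The sources used here do not say whether counting used strand, and without it reads of the gene and its antisense partner cannot be told apart. Slc25a36, which carries the same nucleotides, stood at 33.7, 41.3 and 31.8 CPM in islet and 56.5, 60.2 and 57.3 CPM in fat libraries, below fat in every islet library (log2 -0.71 ± 0.23, edgeR adjusted p = 0.0635). DESeq2 and limma voom called it lower (adjusted p = 0.0168 and 0.0486).

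Slc25a39, which imports glutathione, and its relative Slc25a40 had log2 differences of 0.47 ± 0.34 and -0.06 ± 0.54 (edgeR adjusted p = 0.387 and 0.958). Slc25a51, which imports NAD, had a log2 difference of -0.37 ± 0.27, with a 95% interval of -0.99 to 0.24. For Slc25a26, the carrier of the methyl donor S-adenosylmethionine, and Slc25a32, a folate or flavin carrier, the intervals were -2.84 to 1.99 and -2.53 to 0.47, so only large differences were detectable at these counts.

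Amino acid carriers link mitochondria to the urea cycle, the malate-aspartate shuttle and haem synthesis. Of 12 genes in this group, which includes the acylcarnitine carrier, 9 were tested, 1 rose and 8 did not pass. Slc25a44 (ENSMUSG00000050144.13, chromosome 3, 88410498 to 88425139) stood at 50.4, 33.0 and 43.6 CPM in islet and 15.8, 20.6 and 20.2 CPM in fat libraries. All islet libraries lay above all fat libraries. Its level in islet macrophages was higher by 2.25-fold (log2 1.17 ± 0.28, SE, edgeR adjusted p = 0.0185). The estimate stayed between 1.02 and 1.31 when 1 library was left out, but it missed the threshold without fat library 2, 4 or 6 or islet library 2 (adjusted p = 0.114, 0.0843, 0.0736 and 0.0615). It passed with library 6 as the sole islet sample (log2 1.13, adjusted p = 0.00507).

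Slc25a38, which brings in glycine for haem synthesis, stood at 29.0, 10.6 and 10.5 CPM in islet and 6.15, 3.85 and 6.82 CPM in fat libraries (log2 1.57 ± 0.52, edgeR adjusted p = 0.0652). It did not pass with all libraries, but DESeq2 called it higher (adjusted p = 0.0292). The aspartate and glutamate carriers of the malate-aspartate shuttle, Slc25a12 and Slc25a13, had log2 differences of 0.22 ± 0.28 and -0.62 ± 0.47 (edgeR adjusted p = 0.636 and 0.416). Slc25a22, a glutamate carrier, stood at 4.43, 3.15 and 14.4 CPM in islet and 6.24 to 7.09 CPM in fat libraries, with islet library 6 above and the others below. Its relative Slc25a18 had 1 count in each tissue.

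The ornithine carriers lay on opposite sides of the fat values. Slc25a15, the main one, stood at 4.03, 6.02 and 4.45 CPM in islet and 10.1, 10.7 and 11.2 CPM in fat libraries, below fat throughout (log2 -1.15 ± 0.41, edgeR adjusted p = 0.0864). Slc25a2 stood at 3.02, 4.30 and 3.10 CPM in islet and 1.23, 0.929 and 0.235 CPM in fat libraries, above fat throughout (log2 2.08 ± 0.85, edgeR adjusted p = 0.127). Slc25a2 rested on 15, 15 and 23 counts in islet libraries and 13, 7 and 2 in fat libraries. Neither gene passed in edgeR with all libraries, and DESeq2 called Slc25a15 lower (adjusted p = 0.0227).

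Slc25a20, which exchanges carnitine and acylcarnitine so that long-chain fatty acids can be oxidised, differed more among islet libraries than between tissues. It had 36.5, 29.5 and 5.66 CPM in islet and 12.9, 14.2 and 15.4 CPM in fat libraries. Islet libraries 2 and 4 lay above fat and library 6 below (log2 0.74 ± 0.58, edgeR adjusted p = 0.423). Without islet library 6 it passed as higher (log2 1.22, adjusted p = 0.0108), and with library 6 as the sole islet sample it passed as lower (log2 -1.40, adjusted p = 0.0182). Slc25a45 stood at 13.7, 24.9 and 5.39 CPM in islet and 28.6, 24.7 and 33.9 CPM in fat libraries and did not pass (log2 -1.01, edgeR adjusted p = 0.198). It passed as lower without islet library 4 (log2 -1.63, adjusted p = 0.0351) and with library 6 as the sole islet sample (log2 -2.51, adjusted p = 6.82e-05). Slc25a29 and Slc25a48 were not tested.

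Carriers of di- and tricarboxylates had the narrowest range of log2 differences among these groups, -0.14 to 0.33. They also had fewer tested genes than the groups with 9 or 10, and a range widens with more genes. Of 4 genes 3 were tested, and 0 passed in edgeR, in DESeq2 or in limma voom, with 0 at an unadjusted edgeR p under 0.05. With library 6 as the sole islet sample, Slc25a11 passed as lower (log2 -0.84, edgeR adjusted p = 0.0407). Slc25a1, the citrate carrier, stood at 20.2, 18.9 and 11.7 CPM in islet and 12.7, 15.9 and 14.8 CPM in fat libraries (95% interval of the log2 difference -0.55 to 0.99). Slc25a10, the dicarboxylate carrier for malate and succinate, stood at 20.8, 29.2 and 26.1 CPM in islet and 16.5, 22.8 and 21.3 CPM in fat libraries (interval -0.32 to 0.98). Slc25a11, which exchanges oxoglutarate for malate, stood at 30.2, 34.4 and 17.8 CPM in islet and 26.9, 30.0 and 33.9 CPM in fat libraries (interval -0.85 to 0.56). For all of them the tissues overlapped. Slc25a21, for oxoadipate, had no counts.

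Of the 6 remaining members, Slc25a46, an outer membrane protein of mitochondrial fusion and fission, had almost the same level in all libraries. It stood at 29.6, 28.1 and 29.1 CPM in islet and 29.3, 24.9 and 28.2 CPM in fat libraries, with a 95% interval of -0.48 to 0.62. The orphan carrier Slc25a43 stood at 4.23, 3.44 and 4.72 CPM in islet and 1.13, 0.796 and 1.53 CPM in fat libraries, without overlap, and did not pass in edgeR (log2 1.83 ± 0.71, adjusted p = 0.108). DESeq2 called it higher (adjusted p = 0.0335). Slc25a53 had an interval of -2.91 to 1.55, and Slc25a34, Slc25a35 and Slc25a47 were not tested. Rangrf, on the opposite strand, covers 31.3% of the exonic length of Slc25a35.

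Ratios of related carriers within a library do not depend on how the library is scaled. All 11 pairs listed had at least 10 summed counts in every library, and 5 of them did not overlap between tissues, each with an exact two-sided permutation p = 0.1 over 3 against 3 libraries. That is the smallest p this design allows, and it is 0.22 after adjustment over the 11 pairs, of which 2 share Slc25a24. For Slc25a25 with Slc25a24, Slc25a2 with Slc25a15 and Slc25a33 with Slc25a36, the first gene alone lay above fat in every islet library. The second gene alone lay below. Ratios of these pairs could then not overlap, so their permutation p adds nothing to the single-gene values. The share without overlap over other pairs of genes was not computed. Among all single genes tested, 18.2% lay above fat in every islet library and 22.3% below, without overlap. Slc25a25 made up 85.8%, 86.5% and 46.5% of the counts of Slc25a25 and Slc25a24 together in islet, and 24.4%, 20.7% and 13.9% in fat libraries. The ratio was higher in islet by 3.74 on the log2 scale, from -2.06 ± 0.51 in fat to 1.68 ± 1.63 in islet (mean ± SD, n = 3 each). Even islet library 6 had a larger share of Slc25a25 than any fat library.

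Slc25a2 made up 42.9%, 41.7% and 41.1% of the counts of Slc25a2 and Slc25a15 together in islet, and 10.8%, 7.95% and 2.06% in fat libraries. The 3 islet shares were nearly equal, but they rested on 15, 15 and 23 counts of Slc25a2 and 20, 21 and 33 of Slc25a15. Counting error at such counts is wider than the gaps between these shares. Mitoferrin 2 made up 33.1%, 24.6% and 56.2% of the mitoferrin counts in islet and 14.9%, 16.1% and 20.6% in fat libraries. Slc25a33 made up 80.9%, 33.0% and 32.4% of the pyrimidine nucleotide carrier counts in islet and 17.3%, 17.2% and 5.44% in fat libraries. For the aspartate and glutamate carriers, Slc25a12 made up 86.4%, 81.9% and 84.6% in islet and 72.5%, 81.6% and 73.8% in fat libraries, and islet library 4 and fat library 4 nearly touched. The ADP/ATP carriers overlapped, with Slc25a4 at 33.1%, 47.6% and 26.1% in islet and 34.4%, 33.1% and 31.9% in fat libraries (exact permutation p = 0.8).

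**Figure D3:**
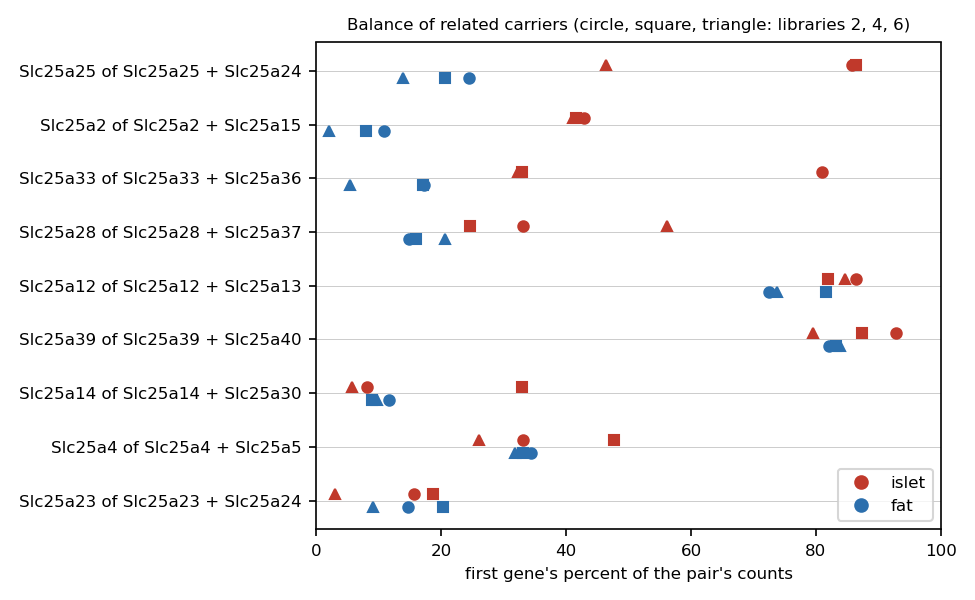
Percent of the summed counts of 2 related carriers that came from the first (x axis), for 9 pairs, with islet libraries in red and fat libraries in blue and a symbol for each library number. The upper pairs, Slc25a25 with Slc25a24 down to Slc25a12 with Slc25a13, separate the tissues, and the lower pairs overlap.

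Genes that work with the carriers were read from 3 lists. For the import route that brings carriers from the cytosol into the inner membrane, 3 of 13 tested genes rose and the other 10 did not pass (23.1% called). Over all genes tested 19.4% were called, 8.97% as higher and 10.5% as lower. Timm29, a subunit of the carrier translocase, stood at 39.3, 35.0 and 23.4 CPM in islet and 11.5, 15.0 and 13.5 CPM in fat libraries (log2 1.28 ± 0.31, edgeR adjusted p = 0.0196). Tomm40, the outer membrane pore, stood at 26.2, 19.5 and 43.6 CPM in islet and 11.2, 10.6 and 14.1 CPM in fat libraries (log2 1.32 ± 0.37, adjusted p = 0.0350). The third was Tomm70a, the outer membrane receptor for carrier precursors. All islet libraries lay above all fat libraries for these genes.

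Of the other transporters and channels of the mitochondrial membranes, 1 of 21 tested genes rose, 3 fell and 17 did not pass. That is 19.0% called, against 19.4% of all genes tested. Vdac2, an outer membrane porin, was higher (log2 1.19 ± 0.24, edgeR adjusted p = 0.00912). Among those that fell was Mcu, the pore of the calcium uniporter, at 3.43, 5.16 and 7.41 CPM in islet and 16.3, 17.0 and 16.5 CPM in fat libraries. The tissues did not overlap, and the gene fell by 1.62 ± 0.40 on the log2 scale (edgeR adjusted p = 0.0233). Sfxn3, a serine transporter gene, also fell. Mpc1 and Mpc2, which form the pyruvate carrier, did not pass (adjusted p = 0.0522 and 0.930).

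Of the enzymes that make or use the carried substrates, 2 of 18 tested rose, 4 fell and 12 did not pass. That is 33.3% called, against 19.4% of all genes tested. Those that rose were Got2 and Got1, the mitochondrial and cytosolic aspartate aminotransferases of the malate-aspartate shuttle. Got2 stood at 71.0, 53.0 and 62.2 CPM in islet and 21.3, 22.6 and 30.8 CPM in fat libraries (log2 1.32 ± 0.26, edgeR adjusted p = 0.00865). Got1 rose by 1.09 ± 0.29 (adjusted p = 0.0304). Oat, which makes or uses ornithine in mitochondria, and Crat, which transfers short acyl groups to carnitine, fell by 1.30 ± 0.23 and 1.39 ± 0.28 (adjusted p = 0.00512 and 0.00948). Cpt1a, which makes acylcarnitines at the outer membrane, also fell. The carriers of the same substrates named above, Slc25a12, Slc25a13, Slc25a15 and Slc25a20, did not pass, and a difference between enzymes and carriers was not tested. Over the 3 lists together 25.0% passed, against 19.4% of all genes, and without any 1 fat library or islet library 2, at most 2 genes rose and 3 fell.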

How the data were processed

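RNA was sequenced from macrophages sorted from islets and epididymal fat, with 10 ng of total RNA per ribosome-depleted, stranded library. The deposited values are raw counts of reads per gene, which the authors had not normalised. The submitters' processing notes name STAR, featureCounts, Subread 1.6.4 and GRCm38. The sources used here do not give the annotation, the use of strand or the treatment of reads with several matches. The members, lists and tests were chosen with earlier results of these data known, and the erythroid list was added after carrier values were seen. The same holds for the promoter motifs, of which a heat shock element and a nuclear respiratory factor 1 site are not reported here.

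The counts went into edgeR 4.0.16 under R 4.3.3 (filterByExpr, TMM, robust quasi-likelihood fit, tissue as the only term) over 12152 genes, with Benjamini-Hochberg adjustment over all of them. CPM uses TMM-scaled library sizes, and levels per length use exonic lengths of GENCODE M21, which holds 50376 of 50600 gene identifiers (99.6%). SE is the log2 difference divided by the square root of F. Ratios within pairs used a pseudocount of 0.5 and exact permutation in scipy 1.17.1. The fit was tested on simulated data. Named in full were all carriers past the threshold, the 6 with the highest level per length and the uncoupling proteins, and in each list of partner genes the 2 smallest adjusted p in each direction. Others were named after their values were seen. The totals also include a few genes whose own values are not reported here. Other fits used DESeq2 1.42.0, voom from limma 3.58.1, RLE or upper-quartile factors, 2 other filters, the replicate number as a block, each library left out, and, added after the data were seen, fits without islet libraries 2 and 4, without ribosomal RNA genes and with protein-coding genes alone. The design text calls the samples autologous and the batch label shares the number. Equal numbers were therefore taken as the same animal or animals, but only where the replicate number was a block. The main fit and the permutations of pair ratios treated the 6 libraries as independent. Correlations of deviations from the tissue mean, across genes, were 0.0441, 0.0733 and 0.00214 for equal numbers 2, 4 and 6, and for unequal numbers from -0.140 to 0.101, so the data gave no sign of the pairing.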

Additional observations from a re-analysis of the deposited data

How the results depend on the processing

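Counts over all genes, 1090 higher and 1271 lower in islet, ranged from 466 to 1649 and from 593 to 2022 when 1 library was left out, and were 2064 and 2916 without islet libraries 2 and 4. Carriers higher and lower (2 and 2) ranged from 0 to 6 and from 2 to 4 with 1 library left out. They were 5 and 5 in DESeq2, 5 lower in limma voom, 4 higher with no filter, and 12 lower without islet libraries 2 and 4. Genes of the 3 partner lists (6 higher, 7 lower) ranged from 0 to 8 and from 3 to 9 with 1 library left out, and 12 were lower without islet libraries 2 and 4. Slc25a24 and Slc25a37 passed in every fit. With the replicate number as a block, Slc25a33 was added to the carriers called (log2 2.20), no other carrier's call changed, and Slc25a22 turned to -0.18. Without islet libraries 2 and 4, log2 differences turned for Slc25a1 (-0.38), Slc25a4 (-0.60), Slc25a5 (-0.11), Slc25a14 (-1.23), Slc25a16 (0.17), Slc25a20 (-1.40), Slc25a26 (0.72), Slc25a28 (0.49), Slc25a30 (-0.35), Slc25a39 (-0.38) and Ucp2 (-0.23), and log2 ratios turned for Slc25a4 to Slc25a5 (-0.49), Slc25a18 to Slc25a22 (-1.37), Slc25a39 to Slc25a40 (-0.33), Slc25a14 to Slc25a30 (-0.80) and Ucp3 to Ucp2 (-0.54). Log2 differences of carriers short of the threshold also changed sign with 1 library left out, for Slc25a3 (-0.42 to 0.10), Slc25a4 (-0.19 to 0.61), Slc25a5 (-0.052 to 0.16), Slc25a11 (-0.34 to 0.086), Slc25a14 (-0.19 to 1.45), Slc25a16 (-0.34 to 0.015), Slc25a17 (-0.43 to 0.22), Slc25a22 (-0.83 to 0.48), Slc25a26 (-2.20 to 0.11), Slc25a28 (-1.23 to 0.031), Slc25a30 (-0.15 to 0.44), Slc25a40 (-0.33 to 0.21) and Slc25a46 (-0.063 to 0.11), as did the log2 ratios of Slc25a4 to Slc25a5 (-0.24 to 0.44), Slc25a14 to Slc25a30 (-0.57 to 0.89) and Slc25a23 to Slc25a24 (-1.02 to 0.38). The cause was not tested.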
